A study of Sus scrofa with 12 samples.

Results

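Genes for the protein subunits of the mitochondrial ribosome were followed in pig embryonic stem cells (ESCs) and fetal fibroblasts. The members were the annotated genes whose symbol is MRPL or MRPS followed by a number, with the locus of highest mean level kept where a symbol stood on several loci. This gave 66 genes of 30012 loci in the table, 40 of the large subunit and 26 of the small subunit. The 4 groups had 3 RNA-seq libraries each. Parthenogenetic ESC-3 and Parthenogenetic ESC-7 (ESC3 and ESC7 below) come from eggs activated without sperm, IVF-derived ESC-11 (ESC11) comes from an embryo fertilised in vitro, and the fibroblasts, at passage 6, were isolated 30 days into gestation. All ESC lines were grown on feeder cells with 20 ng/mL FGF2, 5 ng/mL ActA, 1.5 µM CH and 2.5 µM IWR-1, and SSEA1-positive cells were enriched on a magnetic column before RNA was taken. Each ESC group is 1 line, so parthenogenesis and the identity of the single IVF line cannot be told apart, and ESCs and fibroblasts also differ in culture and in the sort.

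The mitochondrial ribosome translates the few proteins that mitochondrial DNA still encodes, all of them subunits of the respiratory chain or ATP synthase. Its own proteins are encoded in the nucleus, made in the cytosol and imported, and they assemble with a pair of rRNAs made inside the organelle. Many have a counterpart in the bacterial ribosome, and others were added in the mitochondrial lineage. Pluripotent cells of mouse and human are known for small, immature mitochondria.

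Levels are the authors' deposited FPKM, a fragment count divided by transcript length and by the library's mapped total, and differences are on the log2(FPKM + 1) scale. A gene rose or fell where the Benjamini-Hochberg adjusted p from limma, over all 18278 loci tested, was under 0.05, and it was called where the log2 difference was also at least 1. The labels do not say that the 3 libraries of a group are separate cultures, so these p-values cover no more than the library spread within groups, and that spread may be technical. Libraries held 21898 to 24100 loci above 0, and their read depth is unknown. Summed FPKM was 7422330 to 7641831 in ESC3, 4962942 to 7654755 in ESC7 and 2375984 to 3741686 in ESC11, against 3281343 to 7715469 in fibroblasts, and scaling to the same sum was run as an alternative. Stem cell and fibroblast markers matched the labels. POU5F1, SOX2, NANOG, LIN28A and EPCAM summed to 1875 to 2043 FPKM in ESC libraries and to 0.0163 to 0.141 FPKM in fibroblasts, where EPCAM was listed at 0. COL1A1, COL1A2, COL3A1 and VIM, the 4 of 5 fibroblast markers found in the table, summed to 63.2 to 103 FPKM in ESC libraries and to 15608 to 15772 FPKM in fibroblasts. MYOD1, DES, TUBB3 and NES, markers of muscle and neural cells, summed to 235 to 269 FPKM in ESC3, 49.0 to 56.9 FPKM in ESC7 and 141 to 150.2 FPKM in ESC11, against 315 to 331 FPKM in fibroblasts, with MYOD1 listed at 0 in ESC3, ESC11 and fibroblasts. DES was mostly in fibroblasts, and TUBB3, which other cells can also express, averaged 245 FPKM in ESC3, 44.7 FPKM in ESC7 and 139 FPKM in ESC11, against 116 FPKM in fibroblasts. The part of other cell types in the results was not tested.

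Of the 66 members, 63 passed the filter of 1 FPKM in at least 3 libraries, 38 of the large and 25 of the small subunit. They were mid to high in level. The median of the members' mean FPKM was 40.5 in ESC3, 39.5 in ESC7 and 39.9 in ESC11, against 22.1 in fibroblasts. MRPL12, whose protein forms the flexible stalk that recruits translation factors, had the highest level over the 12 libraries, with 185 ± 14.9 FPKM in ESC3, 174 ± 13.2 FPKM in ESC7 and 172 ± 16.2 FPKM in ESC11, against 63.3 ± 6.93 FPKM in fibroblasts (SD, n = 3 each). MRPS9, a small subunit protein with a bacterial counterpart, followed with 123 ± 2.74 FPKM in ESC3, 136 ± 14.3 FPKM in ESC7 and 141 ± 15.4 FPKM in ESC11, against 58.0 ± 7.03 FPKM in fibroblasts. MRPS25, MRPL3 and MRPS34 came next by mean level, and their library ranges overlapped one another in ESCs. The lowest tested members were MRPL36, a short zinc-binding protein of the large subunit, with 3.22 ± 0.0672 FPKM in ESC3, 3.92 ± 0.403 FPKM in ESC7 and 3.31 ± 0.143 FPKM in ESC11, against 2.09 ± 0.184 FPKM in fibroblasts, and MRPS18A, with 3.42 ± 0.291 FPKM in ESC3, 2.76 ± 0.234 FPKM in ESC7 and 3.31 ± 0.549 FPKM in ESC11, against 1.83 ± 0.126 FPKM in fibroblasts. Across the 63 genes the log2 mean levels of ESCs and fibroblasts had a Pearson r of 0.89, and those of ESC3 and ESC7, ESC3 and ESC11, and ESC7 and ESC11 had r of 0.99 each. These are correlations across genes, which share libraries and gene length and are not independent.

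The first comparison asks how the members differ between stem cells and fibroblasts. Most rose in ESCs, 57 of 63, and 2 fell, while 58.3% of all tested loci rose and 29.4% fell. The rises were moderate. The members called higher numbered 21, or 33.3%, near the 28.1% called higher among all loci, and 0 members were called lower, against 14.9% of all loci. Scaling by median ratios gave 8 called higher and 1 lower, where 19.2% and 20.9% of all loci were, and at adjusted p alone 44 rose and 7 fell, where 44.1% and 41.9% of all loci did. The median log2 difference of the members was 0.83, beside 0.43 for the Ensembl loci tested and 0.44 for all loci, which leaves 0.39 relative to the Ensembl loci, and 52 of 63 members lay above the Ensembl median. Median ratios moved the median of all loci to 0.04 and that of the members to 0.38, 0.36 above the Ensembl loci. All 9 ESC libraries lay above all 3 fibroblast libraries for 55 members and below them for 1, and the ranges overlapped for 7; among all tested loci 50.2% lay above and 24.9% below. These are bulk samples, so fewer cells of a type and less RNA per cell cannot be told apart.

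**Figure D1:**
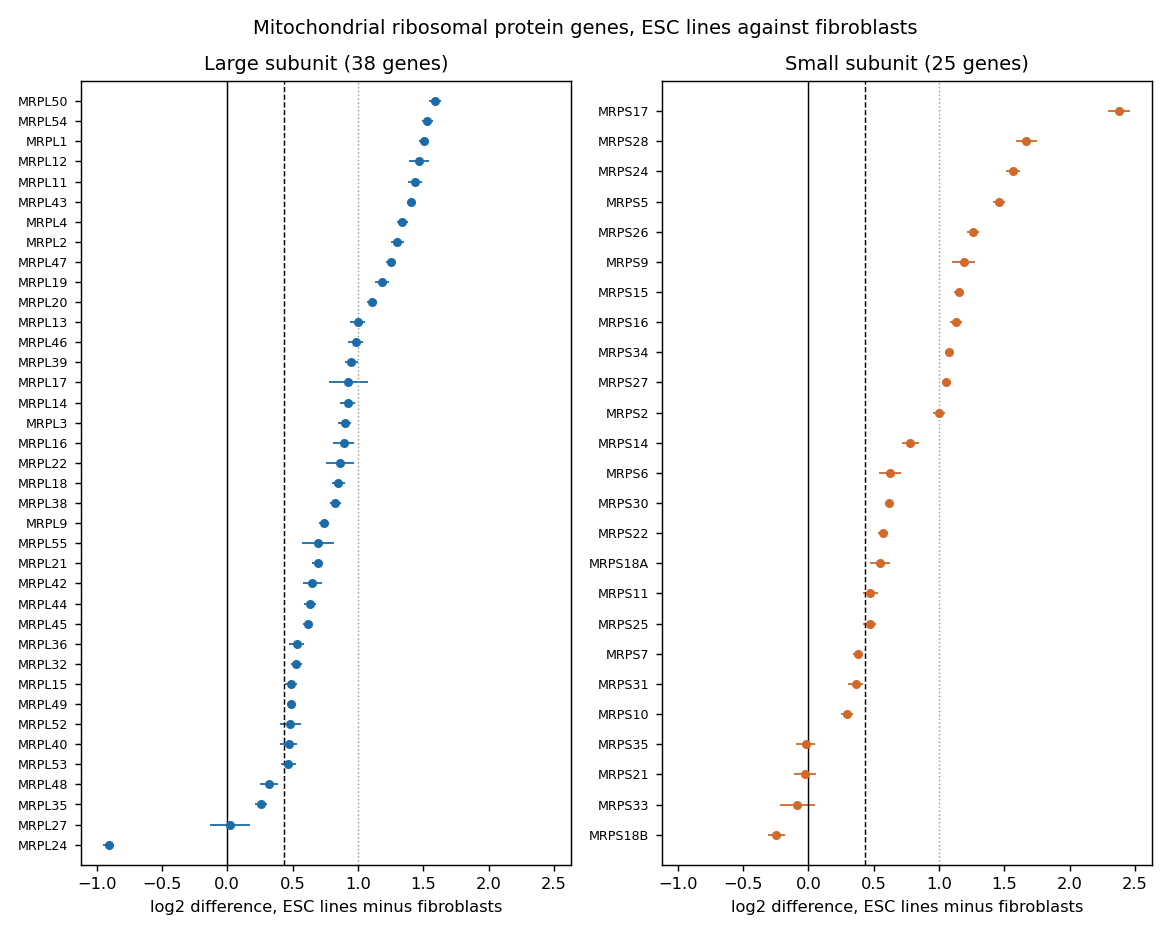
Log2 difference of each tested member, ESC lines minus fibroblasts, with large subunit genes on the left and small subunit genes on the right. Points are the mean of the 3 lines minus fibroblasts on the log2(FPKM + 1) scale, bars are standard errors from limma, the dashed line is the median of the Ensembl loci tested (0.43) and the dotted line the fold minimum. All members but 5 lie right of 0, and MRPL24 stands alone near -0.91.

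The largest rise was that of MRPS17, a small subunit protein whose bacterial counterpart binds rRNA early in assembly (chromosome 3, 17236837 to 17241387, minus strand, Sscrofa10.2 as for all coordinates here). It had 61.1, 63.3 and 59.2 FPKM in ESC3, 67.7, 63.0 and 54.5 FPKM in ESC7 and 69.3, 78.2 and 70.9 FPKM in ESC11, against 13.9, 10.5 and 10.9 FPKM in fibroblasts. The groups were far apart, and every ESC library was above the highest fibroblast library. The log2 difference was 2.38 ± 0.09 (adjusted p = 5.24e-10). MRPS28, a small subunit protein, had 38.3, 40.9 and 31.7 FPKM in ESC3, 34.4, 40.9 and 31.9 FPKM in ESC7 and 39.0, 41.8 and 40.0 FPKM in ESC11, against 10.8, 11.3 and 11.1 FPKM in fibroblasts. Its log2 difference was 1.67 ± 0.08 (adjusted p = 7.11e-09), and the groups did not overlap. MRPS24, the small subunit counterpart of bacterial S3, had 64.8, 67.5 and 64.1 FPKM in ESC3, 54.5, 53.3 and 52.3 FPKM in ESC7 and 64.1, 60.2 and 62.0 FPKM in ESC11, against 20.3, 21.4 and 17.4 FPKM in fibroblasts. All ESC libraries were higher, ESC7 the lowest of the lines, and the difference was 1.57 ± 0.05 (adjusted p = 2.55e-10). MRPS5, which lines the entry path of the mRNA, differed by 1.46 ± 0.05 (adjusted p = 2.73e-10), with 35.9, 33.4 and 36.0 FPKM in ESC3, 36.0, 32.6 and 32.1 FPKM in ESC7 and 36.7, 35.9 and 34.8 FPKM in ESC11, against 11.8, 13.0 and 11.3 FPKM in fibroblasts.

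Among large subunit genes, 11 were called higher. MRPL50, a member with no bacterial counterpart (chromosome 1, 271654112 to 271660594, minus strand), had 13.2, 12.7 and 14.4 FPKM in ESC3, 11.8, 12.8 and 12.3 FPKM in ESC7 and 14.4, 15.3 and 15.3 FPKM in ESC11, against 3.77, 3.95 and 3.75 FPKM in fibroblasts. It was low in every group and higher in each ESC library, by 1.59 ± 0.04 (adjusted p = 5.96e-11). MRPL54, also specific to mitochondria, had 57.9, 62.1 and 60.2 FPKM in ESC3, 54.2, 52.9 and 49.8 FPKM in ESC7 and 59.2, 61.4 and 61.2 FPKM in ESC11, against 18.7, 20.7 and 18.4 FPKM in fibroblasts, a difference of 1.53 ± 0.04 (adjusted p = 4.51e-11). MRPL1, the protein of the mobile stalk beside the tRNA exit site, had 79.0, 76.2 and 80.9 FPKM in ESC3, 74.6, 76.6 and 80.2 FPKM in ESC7 and 68.0, 63.9 and 62.2 FPKM in ESC11, against 24.5, 25.8 and 25.1 FPKM in fibroblasts, a difference of 1.51 ± 0.04 (adjusted p = 1.85e-11). ESC11 was the lowest of the lines for MRPL1 and still above all fibroblast libraries. MRPL12 had 175, 177 and 202 FPKM in ESC3, 187, 160.3 and 174 FPKM in ESC7 and 159.9, 190.3 and 165 FPKM in ESC11, against 61.0, 71.0 and 57.8 FPKM in fibroblasts. All ESC libraries were above all fibroblast libraries. MRPL12 differed by 1.47 ± 0.08 (adjusted p = 1.7e-08), on scaffold GL896096.1, 21 to 1045, minus strand, a short scaffold piece. MRPL11, at the base of the factor-binding stalk, differed by 1.44 ± 0.05 (adjusted p = 7.66e-10), and MRPL43 by 1.41 ± 0.03 (adjusted p = 1.04e-11). The MRPL43 locus overlaps 13 other loci, 7 of them on the other strand. Of these C10ORF2, also called TWNK, differed by 2.17 and SFXN3 by -1.84 between ESC lines and fibroblasts. Their part in the MRPL43 values was not tested. The differences of MRPL11 and MRPL43 were 0.99 and 0.96 with median ratios, under the fold minimum. The other called members were MRPL4, MRPL2, MRPL47, MRPL19 and MRPL20 of the large subunit, with differences of 1.10 to 1.34, and MRPS26, MRPS9, MRPS15, MRPS16, MRPS34 and MRPS27 of the small subunit, with 1.06 to 1.26. None of these others reached the fold minimum with median ratios either. MRPL13 at 0.9994 and MRPS2 at 0.9983 lay just under the fold minimum.

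MRPL24 went the other way. Its bacterial counterpart binds rRNA as an initiator of large subunit assembly. MRPL24 (chromosome 4, 101923959 to 101929444, plus strand) had 17.1, 19.0 and 18.8 FPKM in ESC3, 17.4, 17.9 and 16.6 FPKM in ESC7 and 17.4, 17.9 and 18.4 FPKM in ESC11, against 36.1, 33.9 and 33.0 FPKM in fibroblasts. The 9 ESC libraries lay close together, and all were below the lowest fibroblast library. The log2 difference was -0.91 ± 0.04 (adjusted p = 4.14e-09), which came to -1.16 after centring, -1.14 after quantile normalization and -1.35 with median ratios, and was called under those 3 scalings. No other locus in the table overlaps MRPL24. MRPS18B, 1 of several mitochondrial relatives of bacterial S18, had 15.8, 13.3 and 14.0 FPKM in ESC3, 14.2, 12.7 and 12.7 FPKM in ESC7 and 13.0, 13.2 and 14.9 FPKM in ESC11, against 15.9, 17.7 and 15.8 FPKM in fibroblasts. It fell, with a difference of -0.24 ± 0.06 (adjusted p = 0.0042), but its ESC and fibroblast ranges met, at 15.8 FPKM on both sides, and the adjusted p was 0.503 after scaling to the same sum. MRPS18A, counted by its name although structures place its protein in the large subunit, rose by 0.55 ± 0.08 (adjusted p = 4.56e-05).

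For 4 members no difference passed the test. MRPL27, the counterpart of a bacterial protein near the peptidyl transferase centre, differed by 0.02 ± 0.15 (adjusted p = 0.904), with 3.39, 3.46 and 3.78 FPKM in ESC3, 1.96, 2.75 and 1.41 FPKM in ESC7 and 4.32, 4.53 and 3.07 FPKM in ESC11, against 3.35, 3.62 and 2.19 FPKM in fibroblasts. Its level was low and the libraries within a group were far apart. MRPS35 and MRPS33, both specific to mitochondria, differed by -0.02 ± 0.07 (adjusted p = 0.809) and -0.08 ± 0.13 (adjusted p = 0.564). MRPS21, the counterpart of bacterial S21, differed by -0.02 ± 0.09 (adjusted p = 0.796) over the 3 lines together and is taken up with the lines below. The signs of MRPS35, MRPS21 and MRPS33 turned when single libraries were left out, fibroblast library 3 for all of them, where the differences were 0.037, 0.0182 and 0.1036.

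**Figure D2:**
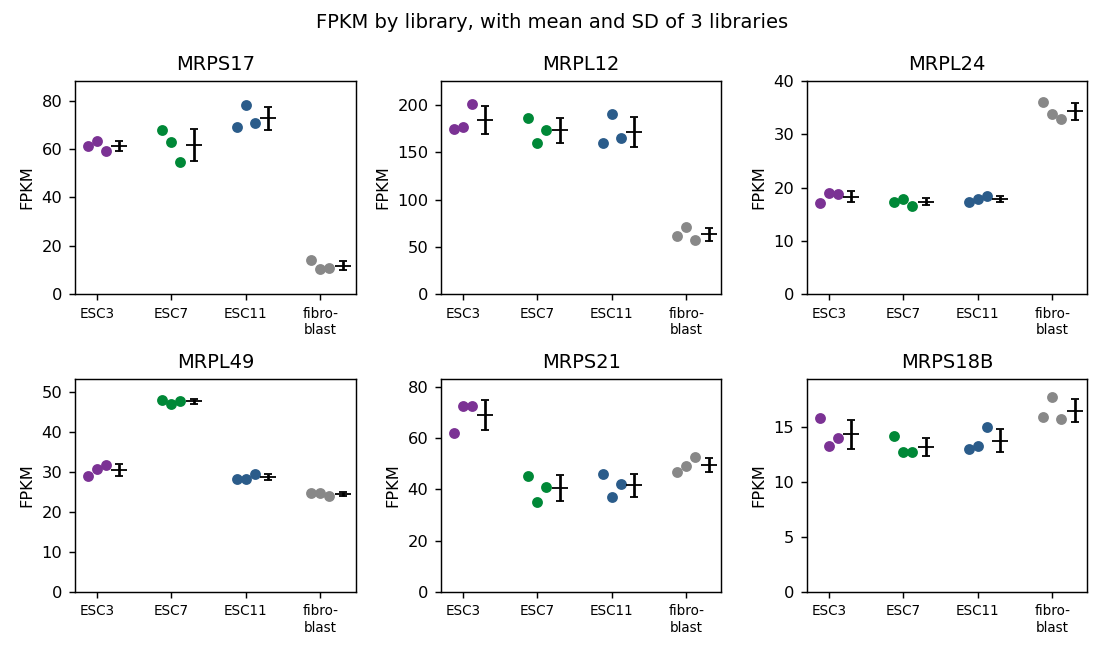
FPKM of 6 members in each of the 12 libraries (points), with the mean and SD of the 3 libraries of a group beside them; each vertical axis starts at 0. MRPS17 and MRPL12 are higher in all ESC libraries, MRPL24 is lower in all of them, MRPL49 is highest in ESC7 and MRPS21 in ESC3.

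The subunits were set side by side as medians over all 40 large and all 26 small members, relative to the median of all Ensembl rows in the same library. The large subunit median lay 3.36 to 3.43 above the Ensembl median in ESC3, 3.22 to 3.42 in ESC7 and 3.40 to 3.44 in ESC11, against 3.03 to 3.10 in fibroblasts, in log2 units. The small subunit median lay 3.52 to 3.59 above it in ESC3, 3.25 to 3.43 in ESC7 and 3.44 to 3.49 in ESC11, against 3.06 to 3.17 in fibroblasts. Both subunits were thus above fibroblasts in every ESC library at this setting, though not under every alternative, and ESC7 libraries spread the most. Counting MRPS18A and MRPS30 with the large subunit, where structures place them, gave group means of 3.40, 3.31 and 3.42 in ESC3, ESC7 and ESC11 and 3.06 in fibroblasts for the large subunit, and 3.56, 3.35 and 3.46 against 3.12 for the small. In the gene-wise fit, 36 of 38 large subunit genes rose and 1 fell, with a median of 0.86, or 0.42 above the Ensembl loci, and 34 lay above the Ensembl median. Of 25 small subunit genes 21 rose and 1 fell, 10 of them called higher, with a median of 0.62, or 0.19 above the Ensembl loci, and 18 lay above it.

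**Figure D3:**
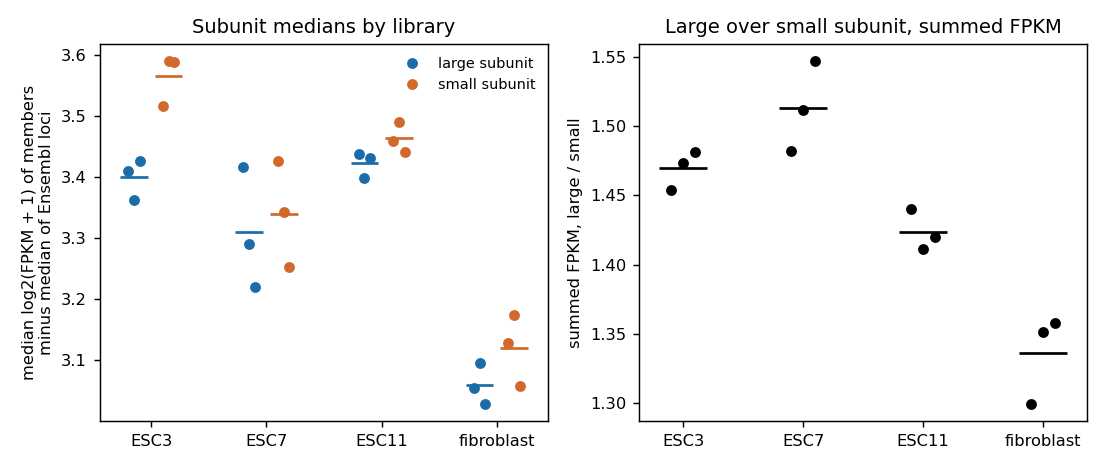
Left, median log2(FPKM + 1) of the 40 large and 26 small subunit genes minus the median of all Ensembl rows, 1 point per library with the group mean as a line; right, summed FPKM of the large subunit genes divided by that of the small subunit genes. Neither axis starts at 0. ESC libraries lie above the 3 fibroblast libraries in both plots.

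A ratio of summed FPKM does not depend on the scaling of a library. Large over small subunit sums were 1.45 to 1.48 in ESC3, 1.48 to 1.55 in ESC7 and 1.41 to 1.44 in ESC11, against 1.30 to 1.36 in fibroblasts, so the ESC and fibroblast libraries did not overlap. One gene weighed on this. Without MRPL12 the ratios were 1.31 to 1.33 in ESC3, 1.32 to 1.38 in ESC7 and 1.26 to 1.30 in ESC11, against 1.21 to 1.27 in fibroblasts, and ESC11 overlapped the fibroblasts. The subunit medians did not show the shift of the sums. Large minus small medians were -0.227 to -0.107 in ESC3, below the fibroblasts at -0.078 to -0.029. They were -0.051 to -0.009 in ESC7 and -0.091 to -0.010 in ESC11, overlapping the fibroblasts. Members with a bacterial counterpart, 40 tested, had a median difference of 0.90 with 15 called higher, or 37.5%. Members specific to mitochondria, 23 tested, had a median of 0.62 with 6 called higher, or 26.1%, beside 28.1% of all loci, and the difference between these classes was not tested.

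Each line was also set against the fibroblasts; the 3 comparisons share the same fibroblast libraries, so they are given side by side and not as independent. In ESC3, 22 members were called higher, where 28.6% of all loci were, and 58 rose and 2 fell at adjusted p alone, where 56.0% and 28.9% of all loci did. In ESC7, 18 were called higher, where 29.2% of all loci were, and 56 rose and 3 fell, where 57.4% and 27.5% of all loci did. In ESC11, 23 were called higher, where 27.4% of all loci were, and 57 rose and 3 fell, where 55.2% and 29.2% of all loci did. No member was called lower in any line, where 15.5%, 14.3% and 15.5% of all loci were in ESC3, ESC7 and ESC11. The counts called higher are again near the share of all loci, while the counts that rose are above it and those lower are below it. With median ratios the members called higher were 8, 5 and 8 of 63 in ESC3, ESC7 and ESC11, where 19.5%, 19.9% and 19.2% of all loci were, and 1 was called lower in each, where 21.5%, 20.4% and 21.2% of all loci were. MRPS17 differed from fibroblasts by 2.29 in ESC3, 2.30 in ESC7 and 2.54 in ESC11, and MRPL24 by -0.87 in ESC3, -0.95 in ESC7 and -0.90 in ESC11. MRPS16, whose human mutations cause a respiratory chain disorder, differed by 0.94 in ESC3, 1.22 in ESC7 and 1.23 in ESC11 and was called in ESC7 and ESC11.

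Between the ESC lines differences were small, and no member reached the fold minimum in any of the 4 comparisons. The parthenogenetic lines together were set against the IVF line, where origin and the identity of that single line cannot be told apart. Here 0 members were called, where 1.52% of all loci were called higher and 0.678% lower. At adjusted p alone 4 rose and 6 fell, where 12.3% of all loci rose and 7.34% fell. MRPL49, a member specific to mitochondria, differed by 0.40 ± 0.03 (adjusted p = 1.98e-05), MRPL1 by 0.26 ± 0.04 (adjusted p = 0.000913), MRPL11 by 0.23 ± 0.06 (adjusted p = 0.017) and MRPS21 by 0.34 ± 0.09 (adjusted p = 0.0283). An unannotated locus that also carries the name MRPL1 differed by 0.24 ± 0.08 and did not pass (adjusted p = 0.0727). The falls were those of MRPL46, MRPL50, MRPL47, MRPL15, MRPL20 and MRPL43, all of the large subunit, with differences of -0.29 to -0.16. Centring gave 4 that rose and 12 that fell, median ratios 3 and 14, and leaving out ESC11 library 3 left 2 and 4. Scaling to the same sum turned all 4 rises, to -0.76 for MRPL49, -0.92 for MRPL1, -0.94 for MRPL11 and -0.84 for MRPS21, and called 57 members lower, where 53.2% of all loci were called lower. Single libraries also decided other calls here: the adjusted p was 0.0643 for MRPL11 without ESC11 library 1, 0.0528 to 0.117 for MRPS21 without ESC3 library 2 or 3, ESC7 library 3 or ESC11 library 2 or 3, 0.0551 and 0.0634 for MRPL20 without ESC11 library 2 and 1, and 0.0521 to 0.115 for MRPL15 without ESC3 library 3, ESC7 library 2 or ESC11 library 1 or 3. MRPL49, MRPS21, MRPL11, MRPL15, MRPL20, MRPL43 and MRPL47 also differed between the parthenogenetic lines themselves, so these means join unlike values. Of the members that rose or fell here, only MRPS21, MRPL1 and MRPL46 also passed between ESC3 and ESC11.

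ESC7 stood below ESC3 for many members. Against ESC3, 25 members fell and 4 rose, where 17.1% of all loci fell and 22.9% rose, so that 39.7% of members were lower. None was called, where 2.34% of all loci were called higher and 1.04% lower. The median member difference was -0.13, or -0.15 relative to the Ensembl loci, whose own median was 0.02; scaling to the same sum turned the median to 0.16, with -0.10 relative to the Ensembl loci and no gene past the test. TUBB3 differed by -2.43 between the same lines, and its part in this was not tested. Lower members came from both subunits, 15 of 38 large and 10 of 25 small. By class they were 14 of 23 members specific to mitochondria and 11 of 40 with a bacterial counterpart. The difference between these classes was not tested. Of 71 cytosolic ribosomal protein genes 3 were higher and 1 lower. For 69 respiratory chain and ATP synthase genes the counts were 4 higher and 7 lower. In other lists described below, falls and rises numbered 3 and 0 among 4 mitoribosomal proteins with other names. They numbered 5 and 1 among 16 translation factors, 7 and 3 among 19 assembly genes and 5 and 1 among 18 aminoacyl-tRNA synthetase genes. For 9 genes of mitochondrial DNA transcription and replication they numbered 5 and 0, and for 10 nuclear regulators 6 and 1. The lists were not tested against one another. Against ESC11, ESC7 had 21 members lower and 3 higher, where 11.3% of all loci were lower and 19.6% higher, with a median of -0.10. None was called, where 2.14% of all loci were called higher and 0.799% lower. The 2 comparisons share the ESC7 libraries.

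The lower members in ESC7 moved by small amounts. MRPL15 had 19.2, 17.6 and 16.9 FPKM in ESC7, against 22.7, 23.8 and 21.6 FPKM in ESC3 and 23.9, 22.2 and 23.0 FPKM in ESC11, and differed by -0.33 ± 0.06 (adjusted p = 0.00115) from ESC3 and -0.35 ± 0.06 (adjusted p = 0.00128) from ESC11. The ESC7 libraries lay below all libraries of both other lines. MRPS30 had 41.5, 41.2 and 41.6 FPKM in ESC7, against 49.2, 48.6 and 49.2 FPKM in ESC3 and 48.9, 47.7 and 47.3 FPKM in ESC11, with differences of -0.24 ± 0.03 (adjusted p = 0.000358) and -0.21 ± 0.03 (adjusted p = 0.00132). MRPS27, a protein specific to mitochondria, differed by -0.23 ± 0.03 (adjusted p = 0.000197) from ESC3 and -0.17 ± 0.03 (adjusted p = 0.00179) from ESC11. After scaling to the same sum the differences from ESC3 were 0.0692 for MRPS27 and 0.0567 for MRPS30, turned in sign, and -0.0431 for MRPL15 and -0.1140 for MRPL32, and none of them passed. MRPL32, whose processing inside mitochondria is known in mouse and yeast to gate ribosome assembly, had 8.85, 8.88 and 9.42 FPKM in ESC7 and 12.3, 11.4 and 13.0 FPKM in ESC3, a difference of -0.39 ± 0.05 (adjusted p = 0.000219). MRPL27 fell most among the large subunit genes, with a difference of -0.60 ± 0.19 (adjusted p = 0.0264) against ESC3, at a level of 2.04 ± 0.673 FPKM in ESC7 and 3.54 ± 0.205 FPKM in ESC3.

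MRPL49 was the clearest exception (chromosome 2, 6198564 to 6203083, minus strand). It had 48.1, 47.1 and 47.8 FPKM in ESC7, against 29.0, 30.7 and 31.8 FPKM in ESC3, 28.3, 28.3 and 29.5 FPKM in ESC11 and 24.8, 24.8 and 23.9 FPKM in fibroblasts. ESC7 was high in each library, and the other lines lay a little above the fibroblasts. The differences were 0.63 ± 0.04 (adjusted p = 1.05e-06) from ESC3 and 0.71 ± 0.04 (adjusted p = 5.62e-07) from ESC11, the smallest adjusted p of any member in both comparisons; after scaling to the same sum the difference from ESC11 was -0.31 and did not pass. SYVN1, which overlaps MRPL49 on the other strand, differed by -0.07 between ESC7 and ESC3 (adjusted p = 0.436) and by -0.06 between ESC7 and ESC11 (adjusted p = 0.53). MRPL11 was also higher in ESC7, by 0.24 ± 0.07 (adjusted p = 0.0162) against ESC3 and 0.35 ± 0.07 (adjusted p = 0.0028) against ESC11, and MRPS16 was higher than in ESC3 by 0.27 ± 0.05 (adjusted p = 0.00276). The rise of MRPL11 over ESC3 did not pass when a library was left out in 3 cases, its adjusted p being 0.0507, 0.0566 and 0.0584 without ESC3 library 1, ESC3 library 3 and ESC7 library 1. MRPL36 was higher than in ESC3 by 0.22 ± 0.07 (adjusted p = 0.0268), a difference of 0.09 after quantile normalization (adjusted p = 0.311), and its adjusted p was 0.0564 to 0.0914 without ESC3 library 1 or 2 or ESC7 library 1 or 3.

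MRPS21 set ESC3 apart (chromosome 4, 108068135 to 108093325, minus strand). It had 62.2, 72.7 and 72.4 FPKM in ESC3, against 45.4, 35.1 and 40.8 FPKM in ESC7, 46.0, 37.0 and 42.0 FPKM in ESC11 and 47.0, 49.1 and 52.6 FPKM in fibroblasts. ESC3 was above every library of the other groups, and ESC7 and ESC11 were below every fibroblast library. MRPS21 differed by -0.76 ± 0.11 (adjusted p = 0.000293) between ESC7 and ESC3 and by 0.72 ± 0.11 (adjusted p = 0.00101) between ESC3 and ESC11. Against fibroblasts it rose in ESC3, by 0.47 (adjusted p = 0.0018). It fell in ESC7, with a difference of -0.29 (adjusted p = 0.0242), and in ESC11, with -0.25 (adjusted p = 0.0485, just under the threshold). In the comparison of ESC3 with ESC11 3 members rose and 2 fell, where 12.2% of all loci rose and 10.8% fell, and 8 passed without ESC7 library 1. None was called, where 1.49% of all loci were called higher and 0.996% lower. MRPL1 had 79.0, 76.2 and 80.9 FPKM in ESC3, against 68.0, 63.9 and 62.2 FPKM in ESC11, a difference of 0.28 ± 0.04 (adjusted p = 0.00141). MRPL32 was higher by 0.24 ± 0.05 (adjusted p = 0.00928), MRPS16 lower, at -0.28 ± 0.05 (adjusted p = 0.00449), and MRPL46 lower, at -0.23 ± 0.07 (adjusted p = 0.0392). The fall of MRPL46 had an adjusted p of 0.0521 to 0.127 when any of 6 single libraries was left out, those of ESC3 library 1 and 3, ESC7 library 2 and each ESC11 library. The differences of MRPS21, MRPL1 and MRPL32 were -0.60, -1.05 and -1.01 after scaling to the same sum.

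**Figure D4:**
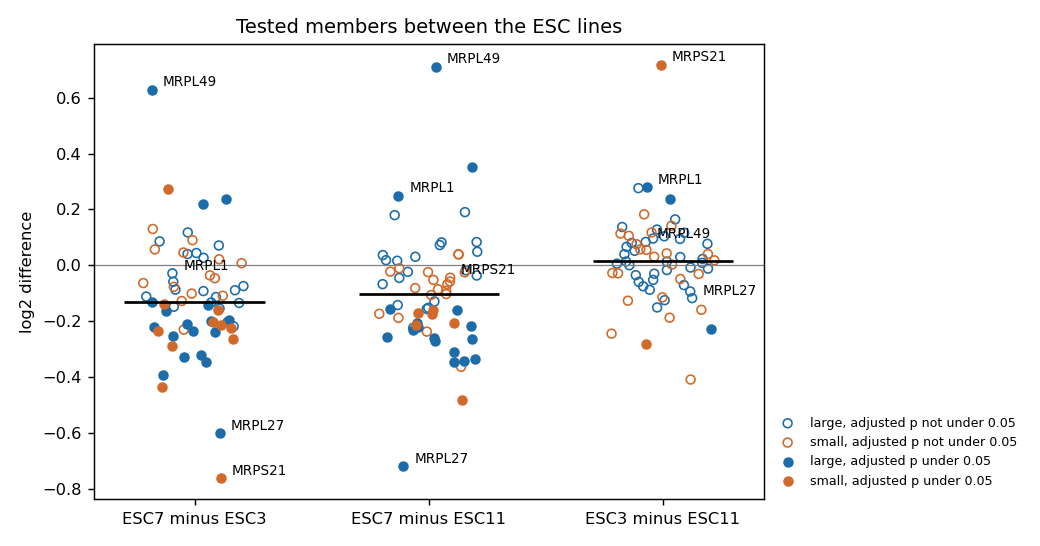
Log2 difference of each of the 63 tested members between pairs of ESC lines, ESC7 minus ESC3, ESC7 minus ESC11 and ESC3 minus ESC11; filled points have an adjusted p under 0.05, blue points are large and orange points small subunit genes, horizontal bars are medians (-0.13, -0.10 and 0.01) and the sideways scatter carries no value. ESC7 has more filled points below 0 than above it. MRPL49 is highest and MRPS21 lowest in ESC7 minus ESC3, and MRPL49 is highest and MRPL27 lowest in ESC7 minus ESC11. MRPS21 is highest in ESC3 minus ESC11.

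The rule and its choice of 1 locus for each symbol left some genes unseen. MRPL33 and MRPL51 were listed at 0 in all 12 libraries on their annotated loci, of 201 and 392 bp, and MRPS23 was above 0 in 2 ESC libraries, at 0.117 and 0.141 FPKM. Unannotated loci carry some of these names. MRPL33 on such a locus had 42.7, 41.6 and 45.9 FPKM in ESC3, ESC7 and ESC11 and 33.9 FPKM in fibroblasts, a difference of 0.34 ± 0.12 (adjusted p = 0.0239), and MRPL51 had 14.3, 13.7 and 14.8 FPKM in ESC3, ESC7 and ESC11 and 7.13 FPKM in fibroblasts, a difference of 0.91 ± 0.09 (adjusted p = 2.95e-06). A second unannotated MRPL51 locus, of 44955 bp, had 4.17, 2.03 and 2.51 FPKM in ESC3, ESC7 and ESC11 and 2.77 FPKM in fibroblasts, a difference of 0.01 ± 0.15 (adjusted p = 0.949). MRPS18C, the third relative of bacterial S18, has no annotated row and had 15.9, 13.7 and 13.8 FPKM in ESC3, ESC7 and ESC11 and 6.46 FPKM in fibroblasts on an unannotated locus, a difference of 1.05 ± 0.05 (adjusted p = 3.69e-09). MRPL37 stood on 4 unannotated loci, with differences of 0.92 to 1.38. The names MRPL1 and MRPL12 also stood on unannotated loci, with differences of 1.37 and 1.26 between ESC lines and fibroblasts. On that MRPL1 locus ESC3 differed from ESC11 by 0.37 (adjusted p = 0.0192) and ESC7 from ESC11 by 0.10 (adjusted p = 0.456). There ESC7 was below ESC3, by -0.27 (adjusted p = 0.0473). Taking loci of any status gave 22 members called higher of 67 tested. Of the second loci of MRPS9, MRPL45 and MRPL22, that of MRPS9 differed by 1.24, that of MRPL45 by 0.68 and that of MRPL22 by 0.75, near the main loci at 1.19, 0.62 and 0.86. In all, 19 members overlap another locus, 13 of them on the other strand, and whether the counting used strand is not given in the sources used here. ACTL6A, over MRPL47 on the other strand, differed by -0.38 between ESC7 and ESC3 and by -0.27 between ESC7 and ESC11. DNAJC9, over MRPS16 on the same strand, differed by -0.44 and -0.30 in those comparisons. VEGFA, over MRPS18A on the other strand, differed by -2.61 between ESC lines and fibroblasts. Their part in the values of these members was not tested. MRPS11 and MRPL46 lie head to head on chromosome 1 with 27 bases between their annotated ends, and differed by 0.47 and 0.98.

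Other genes of mitochondrial translation were read as lists, described by counts over the names that were found and tested. For mitoribosomal proteins with other names, 4 of 7 names searched stood in the table, and of these 4 all rose and 3 were called. PTCD3, a pentatricopeptide protein of the small subunit, averaged 65.4, 60.4 and 61.9 FPKM in ESC3, ESC7 and ESC11 and 24.3 FPKM in fibroblasts, a log2 difference of 1.33, and CHCHD1 and GADD45GIP1 both differed by 1.07. Among all loci 28.1% were called higher and 14.9% lower, the shares beside which the counts of these lists stand. Of 16 translation factors 8 were called higher, or 50%, and 0 lower, with a median of 1.00. GUF1, an elongation factor 4 relative, differed by 1.72, GFM1, elongation factor G, by 1.69, LRPPRC, a stabiliser of mitochondrial mRNA, by 1.64 and C12ORF65, of the release factor family, by 1.58. GFM2, an elongation factor G relative that acts in ribosome recycling, fell by 0.31 and METAP1D, the mitochondrial methionine aminopeptidase, by 0.72 on the log2 scale. Of 19 assembly and rRNA modification genes tested, from 30 names searched, 7 were called higher, or 36.8%, and 0 lower, with a median of 0.58. NOA1, a GTPase of small subunit assembly, averaged 64.0, 70.6 and 65.5 FPKM in ESC3, ESC7 and ESC11 and 10.4 FPKM in fibroblasts, a difference of 2.56. ERAL1, a chaperone of the small subunit rRNA, differed by 1.54 and MRM1, a methyltransferase of the large subunit rRNA, by 1.43. METTL17 was read on an unannotated locus of 124 bp and differed by 1.76.

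Of 18 mitochondrial aminoacyl-tRNA synthetases and amidotransferase subunits, which charge the tRNAs of the organelle, 9 were called higher and 0 lower, with a median of 1.05; those called included FARS2, CARS2 and YARS2, with differences of 1.90, 1.66 and 1.46, and TARS2 and WARS2 fell, by 0.37 and 0.58. Of 9 genes of mitochondrial DNA transcription and replication tested, from 13 names searched, 4 were called higher and 0 lower, with a median of 0.99. TWNK, the helicase, differed by 2.17. It is the same locus as C10ORF2 above, which overlaps MRPL43, and the part of MRPL43 in its values was not tested. TFAM, the packaging and transcription factor, differed by 2.12, SSBP1, which coats single strands, by 1.46 and TFB2M, the transcription cofactor, by 1.35. Of 10 nuclear regulators 4 were called higher and 0 lower, with a median of 0.54. MYCN averaged 44.5, 35.4 and 53.2 FPKM in ESC3, ESC7 and ESC11 and 0.0791 FPKM in fibroblasts, a difference of 5.38, PPARGC1B, a coactivator of mitochondrial genes, differed by 3.02, ESRRA by 1.16 and HCFC1 by 1.14, while MYC fell by 0.25. Of the proteins encoded by mitochondrial DNA, 5 of 26 names searched stood in the table and 2 were tested, MT-ND2 and MT-ND6, on unannotated loci of 800 and 135 bp. MT-ND6 was listed at 0 in all groups but ESC7, and the list was not read further.

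Set against other ribosomal and mitochondrial genes, the mitochondrial ribosomal proteins lay between in median difference and in the share called higher. In the share that rose, 57 of 63 or 90.5%, they lay below both lists that follow. Of 71 cytosolic ribosomal protein genes 10 were called higher, or 14.1%, and 70 rose, with a median of 0.71. Of 69 respiratory chain and ATP synthase genes 45 were called higher, or 65.2%, and all 69 rose, with a median of 1.18. Among all loci 28.1% were called higher and 58.3% rose. Relative to the Ensembl loci the medians were 0.39 for the mitochondrial ribosomal proteins, 0.27 for the cytosolic ones and 0.75 for the respiratory chain, and these lists were not tested against one another. Over the 12 libraries the mean of the members was most like CBWD7, HNRNPA1, GSTCD, CCT4 and SPR among 12778 other Ensembl genes, with Pearson r of 0.9983 to 0.9987 on log2(FPKM + 1), over libraries that fall into ESCs and fibroblasts.

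**Figure D5:**
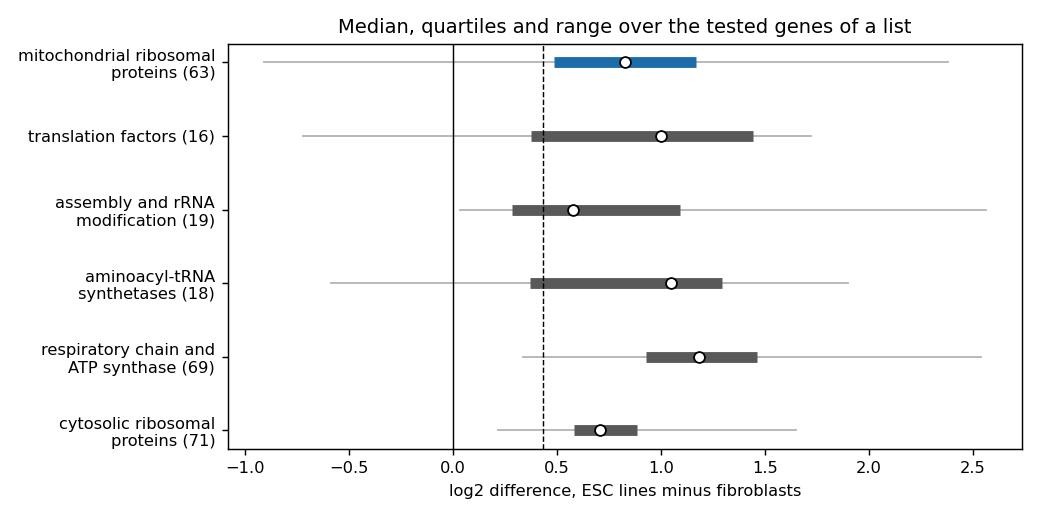
Log2 difference, ESC lines minus fibroblasts, over the tested genes of each list (number in brackets): the circle is the median, the thick bar the quartiles and the thin line the range. The dashed line is the median of the Ensembl loci tested, 0.43. All 6 medians lie right of it, at 0.83 for the mitochondrial ribosomal proteins, 0.71 for the cytosolic ones and 1.18 for the respiratory chain.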

How the data were processed

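PolyA RNA of 12 libraries was read as 100 bp paired ends, per the labels' protocols. The deposited FPKM values come from the authors, in 1 table of all 12 libraries. STAR 2.4.0b and Cufflinks 2.1.1, with the build Sscrofa10.2, are listed in the submitters' processing notes with no role. All 12 columns matched a labelled sample. Depth, strandedness and the handling of multiply mapped reads are not given in the sources used here.

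Values were used as log2(FPKM + 1) without rescaling. Loci reaching 1 FPKM in 3 or more libraries were fitted with limma 3.58.1 in R 4.3.3, with 4 group means and a variance trend, two-sided, with Benjamini-Hochberg adjustment over 18278 loci. The script was tested on simulated data. Errors beside FPKM are SDs and beside log2 differences standard errors. Groups followed the labels. Members, lists, the rule for named genes and the tests were chosen with earlier results of these data known. The classes by bacterial counterpart, the sums without MRPL12 and the values of overlapping loci were chosen after values were seen. Named were the 10 largest called rises, the 5 lowest differences, the 5 highest and lowest levels, untested members, relatives of bacterial S18, up to 6 members each way between lines, and up to 4 called genes each way of a list. Others named were chosen after their values were seen. Alternatives were other pseudocounts, filters, scalings and variance settings, a replicate block, summed loci and leaving out each library. Promoter motifs were not analysed here. One gene that the rule would name is not reported here. Tables used pandas 2.3.3 and plots matplotlib 3.10.9, in Python 3.11.15.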

Additional observations from a re-analysis of the deposited data

Results flagged for a closer look

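MRPS21 differed between ESC lines in opposite directions against the same fibroblasts. ESC3 was above the fibroblasts in all 3 libraries, and ESC7 and ESC11 were below them in all 3. The falls in ESC7 and ESC11 had adjusted p of 0.0242 and 0.0485 from limma, the latter just under the threshold. The difference was 0.72 between ESC3 and ESC11 and -0.76 between ESC7 and ESC3, with adjusted p of 0.00101 and 0.000293 from limma. Between ESC3 and ESC11 it was -0.60 after scaling to the same sum (adjusted p = 0.101). The second MRPS21 locus was listed at 0 in every library.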

How the results depend on the processing

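Of 502 values of single members between ESC lines and fibroblasts, 482 kept direction and side of the threshold, 8 fell under it, 3 passed it and 9 reversed. The reversals were of members with no passing difference: MRPS35 at 0.0230 and MRPS21 at 0.0181 after scaling to the same sum, and, with 1 library left out, MRPS35 (-0.0618 to 0.0370), MRPS21 (-0.0618 to 0.0182) and MRPS33 (-0.2092 to 0.1036). With median ratios, 9 members were called in ESC lines, 9 in ESC3, 6 in ESC7 and 9 in ESC11, against 21, 22, 18 and 23. After scaling to the same sum, 8 were called in ESC3 and 58 in ESC11, with 15 past the adjusted p alone in ESC3 and 21 in ESC7. The summed FPKM of libraries ran from 2375984 to 7715469, and the same-sum scaling moved the line comparisons most; the cause was not tested. It called 57 members between parthenogenetic and IVF ESCs, 62 between ESC3 and ESC11 and 50 between ESC7 and ESC11, all lower, with 63, 62 and 61 at adjusted p alone, and 0 between ESC7 and ESC3. It reversed, between parthenogenetic and IVF ESCs, MRPL49 (-0.76), MRPL1 (-0.92), MRPL11 (-0.94) and MRPS21 (-0.84), between ESC3 and ESC11 MRPS21 (-0.60), MRPL1 (-1.05) and MRPL32 (-1.01), between ESC7 and ESC11 MRPL49 (-0.31), MRPL1 (-0.78) and MRPL11 (-0.68), and between ESC7 and ESC3 MRPS27 (0.0692), MRPS30 (0.0567) and MRPS24 (0.0050). At adjusted p alone, parthenogenetic against IVF ESCs gave 16 after centring and 17 with median ratios, against 10, and ESC3 against ESC11 gave 9 after quantile normalization and 8 with median ratios, against 5.

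The large subunit median relative to Ensembl rows was 3.79, 3.66 and 3.80 in ESC3, ESC7 and ESC11 and 3.59 in fibroblasts with a pseudocount of 0.1, 1.47, 1.48 and 1.55 in ESC3, ESC7 and ESC11 and 0.98 in fibroblasts relative to the tested Ensembl loci, and 3.36, 3.27 and 3.40 in ESC3, ESC7 and ESC11 and 3.16 in fibroblasts with median ratios. The small subunit median was 3.96, 3.69 and 3.84 in ESC3, ESC7 and ESC11 and 3.65 in fibroblasts, 1.64, 1.51 and 1.59 in ESC3, ESC7 and ESC11 and 1.04 in fibroblasts and 3.53, 3.30 and 3.44 in ESC3, ESC7 and ESC11 and 3.22 in fibroblasts under those settings. These are group means, and each setting kept those of the ESC lines above that of the fibroblasts. Single ESC7 and fibroblast libraries overlapped with the pseudocount of 0.1, and for the small subunit also with median ratios.

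Leaving out 1 library gave 21 to 24 called members between ESC lines and fibroblasts. At adjusted p alone it gave 6 to 12 between parthenogenetic and IVF ESCs (6 without ESC11 library 3), 4 to 8 between ESC3 and ESC11, 17 to 24 between ESC7 and ESC11 and 23 to 29 between ESC7 and ESC3. Libraries with the same number did not deviate together, with correlations of -0.090 to 0.087, and 2 of 12 libraries matched their own number best. With a replicate block 21 members were called between ESC lines and fibroblasts. With depth unknown, counting error cannot be set beside any value.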
